A study of Mus musculus with 68 samples.

Results

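Eph receptors and ephrins were followed across single cells of the developing mouse cerebral cortex. The 10 members were the receptors Epha3, Epha4, Epha5, Epha7, Ephb1 and Ephb2 and the ephrins Efna5, Efnb1, Efnb2 and Efnb3, chosen by name, with every probe set that the array's gene table assigns to them. Of the 18194 genes in that table, 9 were members, with 28 of 45101 probe sets; Ephb2 has no probe set in the table and was not analysed here. All 9 measured members passed the filter on low signals, since each had its probe set of highest mean over 20 copies in at least 1 cell, as did 10127 genes in all.

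This series of the study holds 68 single cells of CD1 mice, each on 1 Affymetrix GeneChip array for the mouse genome. They were profiled to follow how cortical progenitors change with embryonic age. The study also used E14 cortical cells that lie in another series and were not analysed here. The untreated cells of this series came from the dorso-lateral cerebral wall at E11 (30 cells) and E12 (3 apical progenitors, APs), and from its ventricular and subventricular zones at E16 (28 cells). A further 3 APs came from neurospheres grown from E11 cells for 3 days in vitro. The last 4 cells, NICD/p18 APs, were taken from the same zones at E14, 3 days after electroporation of the intracellular domain of Notch1 under a CAG promoter and of the cell-cycle inhibitor p18 (Cdkn2c) under an EF promoter, and were picked by co-electroporated EGFP; they are thus 3 days older than the E11 cells they are set against. Cells were chosen for the arrays by marker gene qPCR, and the labels name no embryo or litter. Each group was therefore treated as 1 sample, and no test between groups was made.

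Eph receptors are receptor tyrosine kinases whose ligands, the ephrins, are held on the surface of neighbouring cells, so that signals pass at cell contact. A-type ephrins are tethered by a lipid anchor and bind mainly EphA receptors, B-type ephrins cross the membrane and bind mainly EphB receptors, and EphA4 binds both kinds. Signals run forward into the receptor's cell and in reverse into the ephrin's cell, and in the cerebral wall they are known for roles in progenitor adhesion, neuron migration and axon guidance.

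Cells of E11 and E16 were typed by clustering on fixed marker genes, because the labels give no type for them. At E11 this gave 24 AP-like cells, 3 cells like intermediate progenitors (IP-like) and 3 neuron-like cells, and at E16 it gave 17 AP-like, 8 IP-like and 3 neuron-like cells. The top 10 genes of both AP-like clusters were all AP markers such as Sox2, Pax6 and Fabp7. Of the top 10 genes of each IP-like cluster 9 were IP markers, among them Eomes, Insm1 and Neurog2, but at E16 the AP marker Notch1 was the remaining 1 and 16 of 18 AP markers were over 20 copies in at least 1 IP-like cell. The neuron-like clusters had 8 neuron and 2 IP markers among their top 10 genes at E11 and 6 and 4 at E16. The E11 cell 31i, which the study's methods exclude for low quality, was left out of every group, which leaves 23 E11 AP-like cells and 67 cells in all. The types are rebuilt, so that differences from the study's own typing can come from that.

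Signals are normalized array intensities on the log2 scale. The 20-copy signal is the median of the spiked phe RNA, added at 20 copies per cell, and stands at 9.72; signals under it are listed as measured but have no order. Shares of cells over 20 copies carry exact (Clopper-Pearson) 95% intervals, which cover counting error only. The spike itself differed between cells, with medians from 9.29 to 11.62 by group, and its median was highest in the NICD/p18 cells, where it ran from 10.2 to 12.19. As deposited, the 10 arrays of E12, neurosphere and NICD/p18 cells were scaled to a trimmed mean of 500, whereas those of E11 and E16 ran from 47.5 to 298, so scaling and group cannot be told apart for these 10 cells. Markers of microglia and interneurons were over 20 copies in none of the 67 cells, Cldn5 of the vessel list was over it in 1 NICD/p18 cell and Col1a2 of the meninges list in 2 E16 AP-like cells. The E11 AP-like cell 42P had 4 of 5 blood genes over 20 copies, and the E11 neuron-like cell 30F had 3 of 5 Cajal-Retzius genes.

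Promoters are shown for 3 members whose cells the results turn on, the receptor Epha4 and the ephrin Efnb1, which most APs carried, and the receptor Ephb1, which most NICD/p18 cells carried. RefSeq (GRCm38.p6) lists a window of 250 bases before to 50 after a start site for 9 of the 10 members, all but Efnb3. The bases printed are those upstream of the gene's annotated span, 5′ to 3′ along the gene's strand, with each TGGGAA in capitals, the core letters bound by Rbpj, the DNA-binding partner of the Notch intracellular domain.

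Epha4, chr1:77515108-77515338, minus strand: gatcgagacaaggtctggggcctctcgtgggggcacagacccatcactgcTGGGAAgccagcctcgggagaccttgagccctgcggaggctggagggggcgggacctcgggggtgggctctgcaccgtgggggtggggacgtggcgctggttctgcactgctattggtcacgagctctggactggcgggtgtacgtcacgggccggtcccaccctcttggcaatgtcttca

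Ephb1, chr9:102354694-102354943, minus strand: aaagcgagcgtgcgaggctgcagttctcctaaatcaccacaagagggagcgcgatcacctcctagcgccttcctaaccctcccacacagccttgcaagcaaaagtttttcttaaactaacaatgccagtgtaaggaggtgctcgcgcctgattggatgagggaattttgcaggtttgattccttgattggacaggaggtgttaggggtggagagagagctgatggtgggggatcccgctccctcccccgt

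Efnb1, chrX:99135811-99136060, plus strand: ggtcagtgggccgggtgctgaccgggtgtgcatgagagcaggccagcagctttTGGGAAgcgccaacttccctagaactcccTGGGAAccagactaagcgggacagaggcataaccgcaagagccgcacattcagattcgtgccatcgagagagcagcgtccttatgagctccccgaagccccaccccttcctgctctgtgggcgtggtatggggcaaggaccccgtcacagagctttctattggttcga

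Searched on both strands of the whole windows, TGGGAA stood in 3 of the 9 members' promoters, with 1 match in Epha4, 1 in Epha7 and 2 in Efnb1, and in 25.5% of the 27025 promoters listed. The Ephb1 window holds none. CANNTG, the E-box letters of proneural factors, stood in 2 of the 9, Ephb2 and Efnb2, and in 72.1% of all promoters, and no match overlapped a TGGGAA. The members' windows were rich in CG, with a median of 24 CG pairs against 7 over all promoters, the lowest being 14 in Ephb1 and Efnb1 and the highest 38 in Efna5. These are matches of letters and not shown to be sites.

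Epha4, a receptor for ephrins of both types, was over 20 copies in cells of every group. Its probe set 1429021_at was over 20 copies in 16 of 23 E11 AP-like cells, 69.6% (47.1 to 86.8), with a lowest signal of 2.51, a median of 10.69 and a highest of 11.89. In E16 AP-like cells it was over 20 copies in 16 of 17, 94.1% (71.3 to 99.9), with a lowest signal of 9.14, a median of 11.36 and a highest of 12.76. E16 cells thus lay in a narrow high band, with 1 cell under the line, while 7 E11 cells were under it, and the ranges overlapped widely. The share was 24.6 points higher at E16, just under the 25 points taken as a call, and the mean log2 signal was 11.28 ± 1.0 (SD, n = 17 cells) against 9.85 ± 2.27 (SD, n = 23 cells).

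Whether Epha4 passes 25 points turns on single choices. It did so with all cells of each stage (27.3 points), with cell 31i kept (27.5), under average linkage (26.3), with the 20-copy signal doubled (28.6) and without the E11 cells numbered 42 (25.4). It was 17.6 points without the E11 cells numbered 45, 16.1 without the E16 cells numbered 81, 18.7 in the deposited signals and 21.4 without cell 42P. The E16 cells numbered 81 were over 20 copies in 10 of 10; the labels do not say what the number marks.

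Among the other groups, Epha4 was over 20 copies in 8 of 8 E16 IP-like cells, whose signals ran from 10.12 to 11.92 around a median of 11.03. In the 4 NICD/p18 cells it stood at 10.07, 10.24, 10.47 and 11.37. The 3 E12 APs gave 8.58, 11.22 and 11.56, and the 3 neurosphere APs 2.6, 4.75 and 10.13. All NICD/p18 cells were thus over the line and 2 of 3 neurosphere cells well under it. The 3 E11 IP-like cells gave 7.3, 8.14 and 10.39. Neuron-like cells were split at both ages, with 3.26, 11.24 and 11.79 at E11 and 2.71, 10.08 and 12.08 at E16, and the low E11 cell was 30F.

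Ordered by share, Epha4 ran from E16 IP-like and NICD/p18 cells (100% each) through E16 AP-like (94.1%), E11 AP-like (69.6%), E12, E11 neuron-like and E16 neuron-like cells (66.7% each) to neurosphere and E11 IP-like cells (33.3% each). The intervals of all neighbours in this order overlapped. The other 4 probe sets of Epha4 were over 20 copies in at most 2 of 67 cells each, so that the E16 minus E11 difference was 0.0 to 5.88 points on them. All values given for Epha4 are from 1429021_at.

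**Figure D1:**
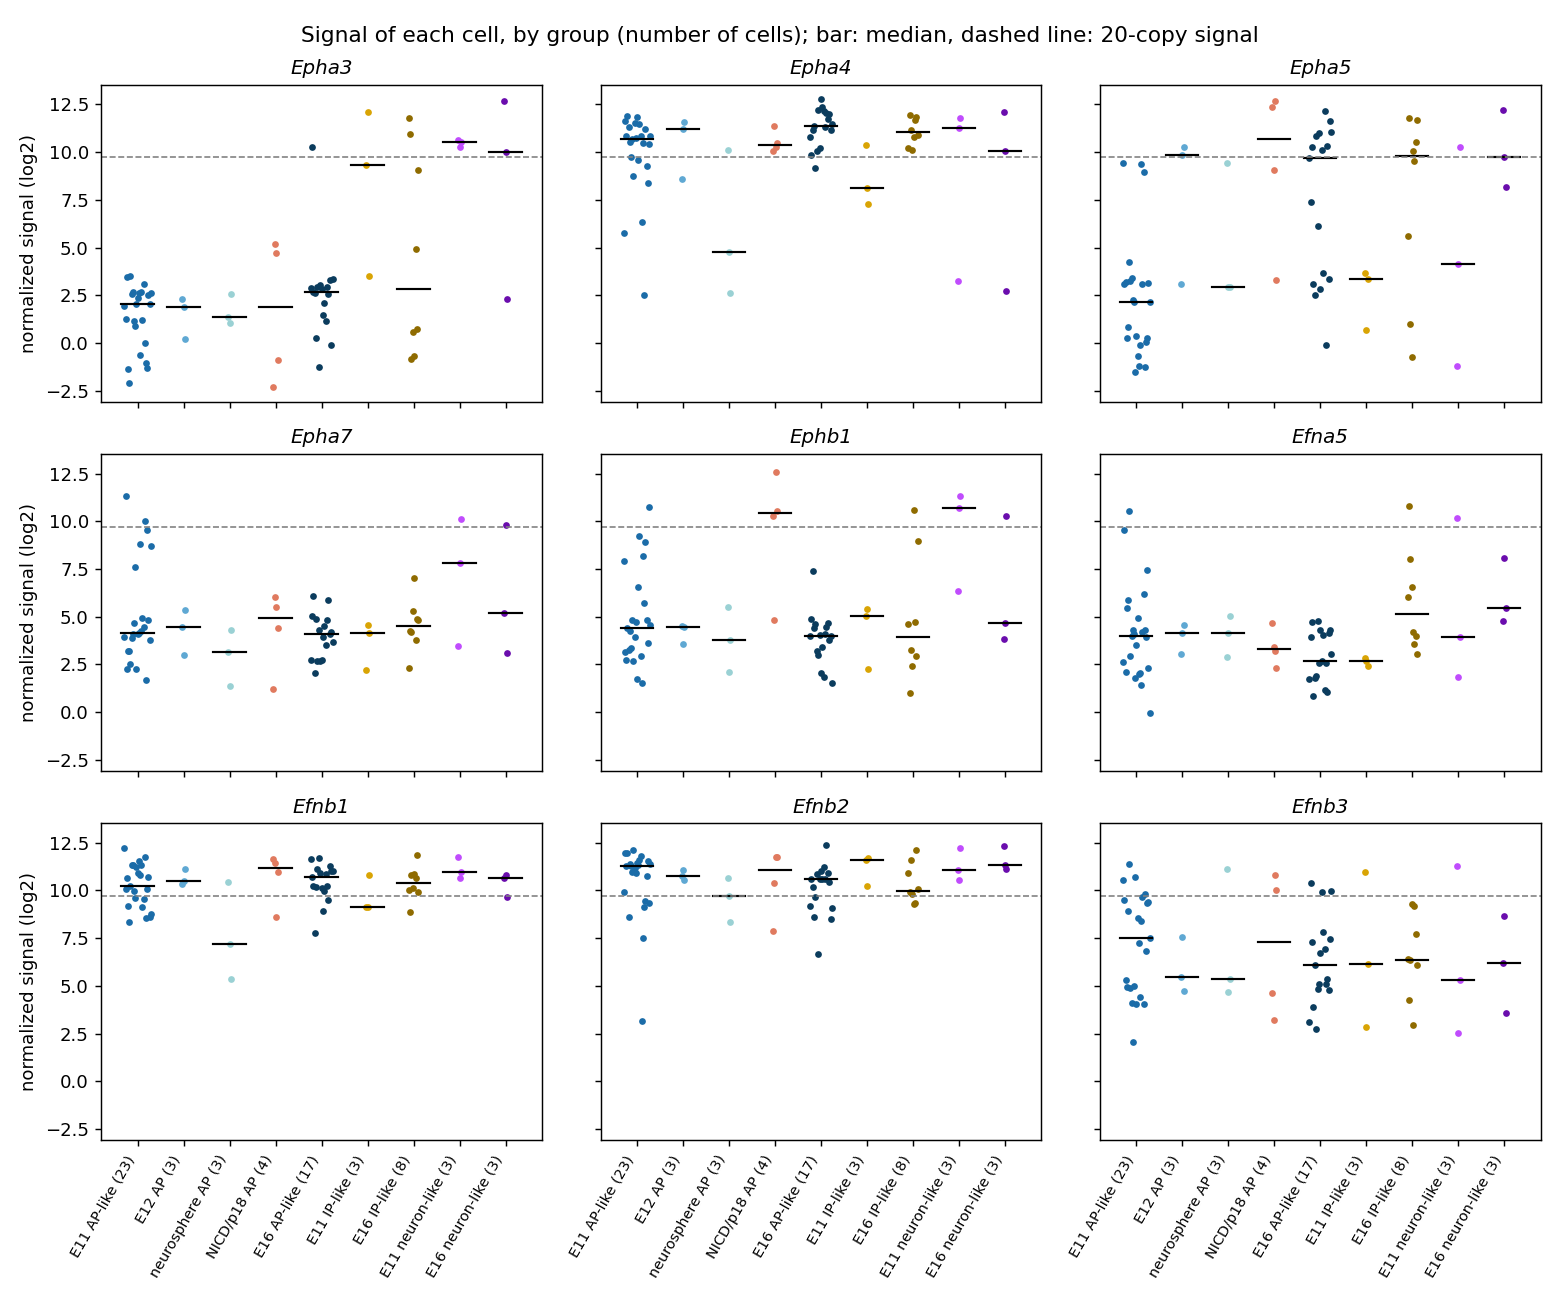
Normalized log2 signal of each cell (vertical axis, log2 scale) for the 9 measured members, by group of cells (horizontal axis, number of cells in parentheses); points are cells, bars medians and the dashed line the 20-copy signal of 9.72. Epha4, Efnb1 and Efnb2 lie mostly over the line in all groups but the neurosphere APs and, for Epha4 and Efnb1, the E11 IP-like cells, whereas Epha5 lies under it in all 23 E11 AP-like cells and Epha3 over it in all 3 E11 neuron-like cells.

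Epha5, a receptor for A-type ephrins, had the largest difference among the members between E16 and E11 AP-like cells at the 20-copy line. Its probe set 1435286_at was over 20 copies in 0 of 23 E11 AP-like cells, which allows a share of up to 13% by the limit of 3 counts and 14.8% by the exact interval. The lowest E11 signal was -1.5, the median 2.17 and the highest 9.42. In E16 AP-like cells it was over 20 copies in 8 of 17, 47.1% (23 to 72.2), with a lowest signal of -0.09, a median of 9.67 and a highest of 12.16. The E16 cells thus spread from far under the line to well over it. The intervals of the shares did not overlap, while the ranges of signals did.

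The difference of 47.1 points made Epha5 the 1 member of 9 called higher in E16 than in E11 AP-like cells, where 5.55% of 10127 genes were called higher. No member was called lower, where 6.47% of genes were. A share of 1 in 9 is close to the background for so few genes. Over the 9 members the median difference was 0.256 points and -0.37 in mean log2 signal, against 0.0 points and -0.1 over all genes.

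Epha5 kept over 25 points with the 20-copy signal doubled (0 of 23 against 5 of 17 cells) and halved (3 of 23 against 9 of 17). With arrays scaled to the lys spike it was over 20 copies in 2 of 23 E11 and 5 of 17 E16 cells, 20.7 points, which ends the call. That scaling moved all genes, with 2.35% called higher and 15.7% lower and a median log2 difference of -0.7, and in the deposited signals these were 3.08%, 12.1% and -0.48, with Epha5 at 36.8 points. Among the E16 AP-like cells, the 8 over 20 copies had a lower median array level as deposited (112) than the 9 under it (166), and the part of this in the result was not tested. Without the E16 cells numbered 81, 3 of 7 remained over 20 copies (42.9 points).

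Outside the AP-like cells, Epha5 was over 20 copies in 4 of 8 E16 IP-like cells, 50% (15.7 to 84.3), where signals ran from -0.73 to 11.76 around a median of 9.78. No E11 IP-like cell reached it, at 0.67, 3.36 and 3.66. The 3 E12 APs gave 3.1, 9.87 and 10.24 and the 3 neurosphere APs 2.91, 2.94 and 9.44, so that 2 of 3 E12 cells but no neurosphere cell were over the line. In NICD/p18 cells it stood at 3.31, 9.05, 12.34 and 12.69. Neuron-like cells gave -1.22, 4.13 and 10.29 at E11 and 8.15, 9.74 and 12.21 at E16.

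Ordered by share, Epha5 ran from E12 APs and E16 neuron-like cells (66.7% each) through E16 IP-like and NICD/p18 cells (50% each), E16 AP-like cells (47.1%) and E11 neuron-like cells (33.3%) to E11 AP-like, E11 IP-like and neurosphere cells at 0. Neighbouring intervals overlapped. The interval of E11 AP-like cells stayed below those of E16 AP-like and E16 IP-like cells alone. Of its other probe sets, 1437920_at was over 20 copies in 8 cells, 2 of them NICD/p18 and 2 E16 AP-like cells and 1 an E11 AP-like cell, 1444690_at in 2 NICD/p18 cells, 1 E12 AP and 1 E16 neuron-like cell, and 1420557_at in 1 E16 AP-like cell.

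Epha3, another receptor for A-type ephrins, was over 20 copies mainly in neuron-like cells on its probe set of highest mean, 1455426_at. There it stood at 10.26, 10.55 and 10.63 in the 3 E11 neuron-like cells and at 2.31, 10.02 and 12.68 in the 3 of E16. Of the latter, 72J (12.68) had 8 IP and 6 neuron markers over 20 copies and 76J (10.02) had 9 and 8. Cell 80K (2.31) had 2 IP and 13 neuron markers. Under average linkage 72J and 76J were IP-like. No E11 AP-like cell of 23 was over 20 copies (highest signal 3.52), and 1 of 17 E16 AP-like cells was, at 10.28. At the 20-copy line the interval of the 3 E11 neuron-like cells, 29.2 to 100%, lay above those of both AP-like groups, at up to 14.8 and 28.7%. With the 20-copy signal doubled 0 of these 3 cells were over it, and with arrays scaled to the lys spike 1 of 3 was. The separation also rests on 1455426_at alone. On 1425575_at no E11 neuron-like cell was over 20 copies, at -2.32, 2.6 and 4.53, and 1 of 3 at E16 was, at 10.27. On 1425574_at no neuron-like cell of either age was over it. No E12, neurosphere or NICD/p18 AP was over the line.

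IP-like cells carried Epha3 in part. At E11 they gave 3.52, 9.31 and 12.08, and its probe set with the next most cells over 20 copies, 1425575_at, stood at 11.62 and 9.94 in the latter 2 of these cells, 41G and 42M. At E16, 2 of 8 were over 20 copies, at 10.92 and 11.78, both of them cells with 6 of the 18 neuron markers over 20 copies, the most among the 8. The other 6 had 2 to 5. Probe set 1426057_a_at was over 20 copies in no cell.

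Epha7, a further receptor for A-type ephrins, was over 20 copies on 1443485_at in 2 of 23 E11 AP-like cells, at 9.99 and 11.3, and in 1 neuron-like cell of each age, at 10.13 and 9.81. The count was 0 of 17 E16 AP-like cells, which allows up to 17.6%, 0 of 8 E16 IP-like cells, which allows up to 37.5%, and 0 in the E12, neurosphere, NICD/p18 and E11 IP-like cells. Its other 3 probe sets were over 20 copies in 1, 4 and 1 of 67 cells. Counts this small do not resolve differences between groups, and none was tested.

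Ephb1, a receptor for B-type ephrins with 1 probe set, 1455188_at, was found mainly in NICD/p18 and E11 neuron-like cells. It was over 20 copies in 1 of 23 E11 AP-like cells, 4.35% (0.11 to 21.9), with a median signal of 4.42 and a highest of 10.74, and in 0 of 17 E16 AP-like cells, where the highest was 7.38. In the NICD/p18 cells it stood at 4.83 (M5K), 10.27 (M5A), 10.55 (M6H) and 12.57 (M6C), so that 3 of 4 were over the line, 75.0% (19.4 to 99.4). In neuron-like cells it stood at 6.33, 10.68 and 11.33 at E11 and at 3.82, 4.68 and 10.27 at E16. One of 8 E16 IP-like cells was over it, at 10.6, and no E12, neurosphere or E11 IP-like cell.

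**Figure D2:**
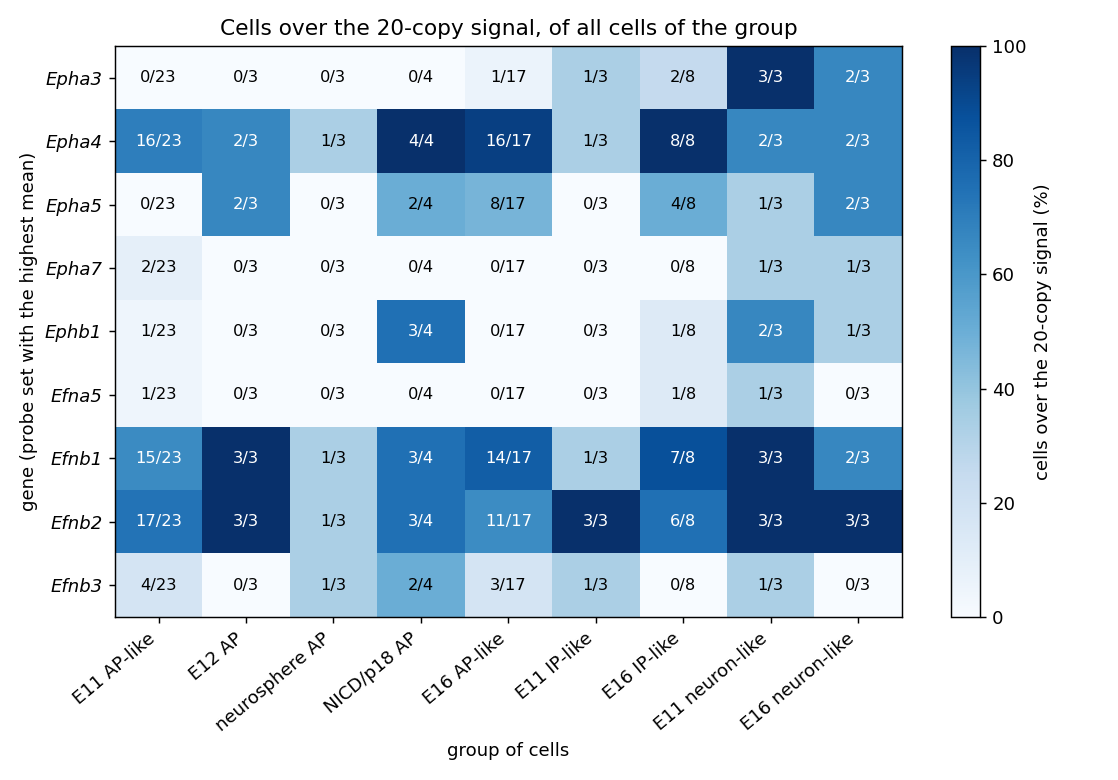
Cells over the 20-copy signal (colour, percent of the cells of each group; numbers give cells over and all cells) for the probe set of highest mean of each measured member (vertical axis) in the 9 groups (horizontal axis). Ephb1 is over it in 3 of 4 NICD/p18 APs and 2 of 3 E11 neuron-like cells but in 1 of 23 E11 AP-like cells, and Epha3 in 3 of 3 E11 neuron-like cells.

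The A-type ephrin among the members, Efna5, was scarce. On 1436866_at it was over 20 copies in 1 of 23 E11 AP-like cells (10.52), 1 of 8 E16 IP-like cells (10.82) and 1 of 3 E11 neuron-like cells (10.17, in cell 30F), and in none of the other groups. In E16 AP-like cells the highest signal was 4.79, and 0 of 17 allows a share of up to 17.6%. Its other probe set, 1421796_a_at, was over 20 copies in no cell.

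Efnb1, a transmembrane ephrin, was over 20 copies in most cells. On 1418286_a_at it was over 20 copies in 15 of 23 E11 AP-like cells, 65.2% (42.7 to 83.6), with signals from 8.36 through a median of 10.26 to 12.2. In E16 AP-like cells it was over 20 copies in 14 of 17, 82.4% (56.6 to 96.2), with signals from 7.79 through 10.68 to 11.7. The ages overlapped over almost their whole range, and the mean log2 signals of 10.25 ± 1.13 (SD, n = 23 cells) and 10.43 ± 1.01 (SD, n = 17 cells) differed by less than 1 SD between cells.

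The 3 E12 APs gave Efnb1 signals of 10.33, 10.52 and 11.1 and the 3 neurosphere APs 5.38, 7.19 and 10.47. NICD/p18 cells gave 8.63, 10.96, 11.44 and 11.63. Of the others, 7 of 8 E16 IP-like cells were over 20 copies, as were 1 of 3 E11 IP-like cells, 3 of 3 E11 neuron-like cells and 2 of 3 E16 neuron-like cells. A second probe set, 1451591_a_at, ran lower, with 7 of 23 E11 and 3 of 17 E16 AP-like cells over 20 copies, which reverses the order of the ages, and 1418285_at was over it in no cell.

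Efnb2, the transmembrane ephrin known for its part in vessels and guidance, was also widespread. On 1419639_at it was over 20 copies in 17 of 23 E11 AP-like cells, 73.9% (51.6 to 89.8), with signals from 3.15 (cell 42P) through a median of 11.28 to 12.1. In E16 AP-like cells it was over 20 copies in 11 of 17, 64.7% (38.3 to 85.8), with signals from 6.67 through 10.59 to 12.37. The E11 median was thus the higher, with much overlap.

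The size of that difference depended on where the line was drawn. At 20 copies it was -9.21 points, and with the 20-copy signal doubled 16 of 23 E11 and 5 of 17 E16 cells remained over it, -40.2 points. It was -25.3 points with arrays scaled to the lys spike and -31.1 without the E16 cells numbered 81, of which 8 of 10 were over the line. The second probe set, 1419638_at, was over 20 copies in 12 of 23 E11 cells, 52.2% (30.6 to 73.2), and in 4 of 17 E16 cells, 23.5% (6.81 to 49.9). On both probe sets the E16 share was thus the lower, with overlapping intervals. The remaining 2 probe sets were over 20 copies in no cell.

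Every E11 IP-like cell and every neuron-like cell of either age was over 20 copies for Efnb2, with signals of 10.25, 11.62 and 11.68 in the E11 IP-like cells, 10.56, 11.06 and 12.22 in the E11 and 11.14, 11.31 and 12.33 in the E16 neuron-like cells. At E16 6 of 8 IP-like cells were over it (9.29 to 12.12). The 3 E12 APs gave 10.55, 10.77 and 11.05, the 3 neurosphere APs 8.37, 9.71 and 10.66, and the NICD/p18 cells 7.89, 10.4, 11.76 and 11.77.

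Efnb3, the third transmembrane ephrin, had 1 probe set, 1423085_at. It was over 20 copies in 4 of 23 E11 AP-like cells, 17.4% (4.95 to 38.8), and in 3 of 17 E16 AP-like cells, 17.6% (3.8 to 43.4), with medians of 7.53 and 6.12. NICD/p18 cells gave 3.2, 4.61, 10.04 and 10.8. It was over 20 copies in 1 of 3 neurosphere APs (11.12), 1 of 3 E11 IP-like cells (10.97) and 1 of 3 E11 neuron-like cells (11.3), and in 0 of 8 E16 IP-like cells, 0 of 3 E12 APs and 0 of 3 E16 neuron-like cells.

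**Figure D3:**
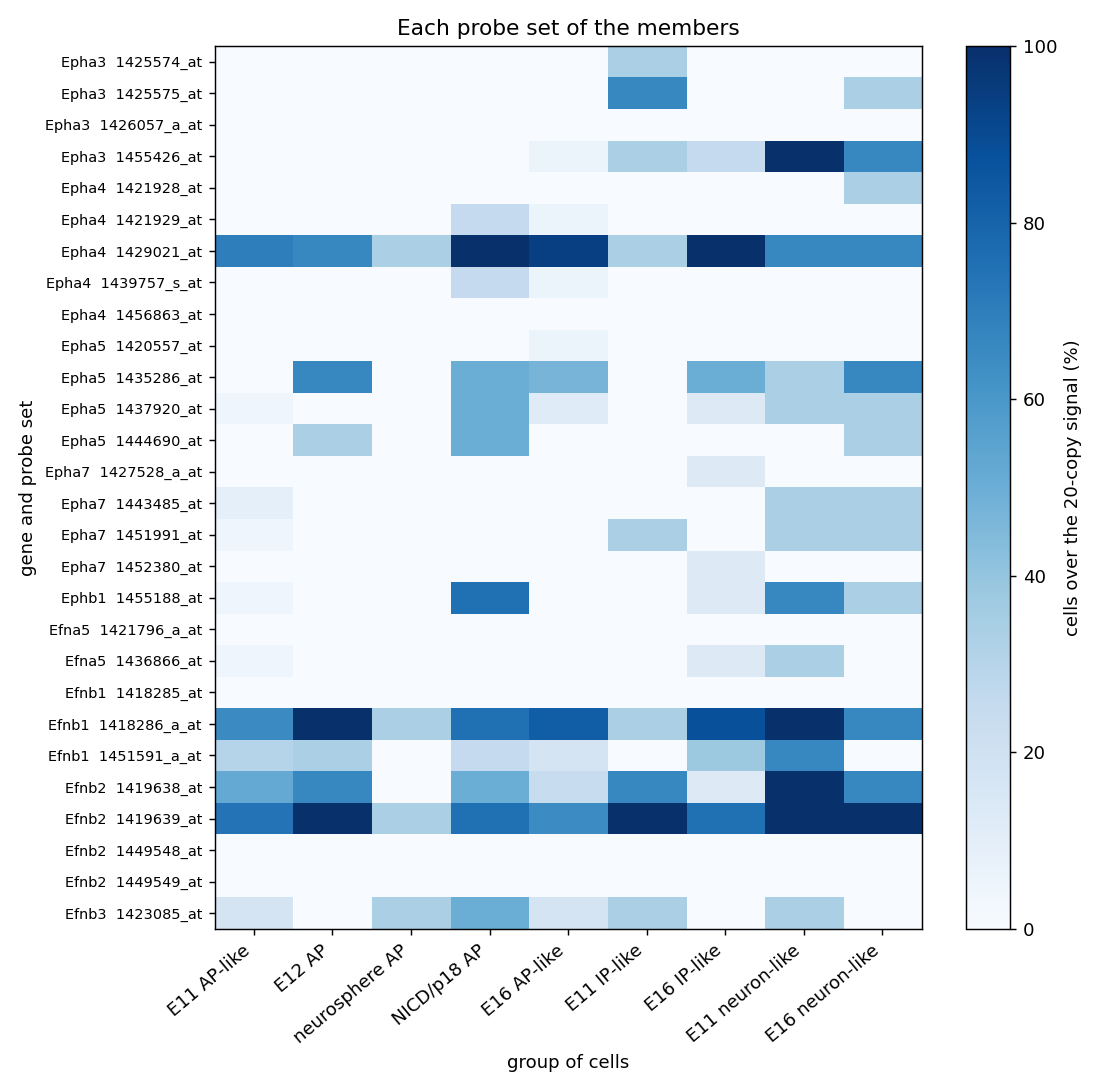
Percent of cells over the 20-copy signal (colour) for each of the 28 probe sets of the members (vertical axis) in the 9 groups of cells (horizontal axis). Epha4 is read almost wholly by 1429021_at, the other 4 being over it in at most 2 of 67 cells each, whereas 2 probe sets each of Efnb1 and Efnb2 are over it in many cells.

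Between E16 IP-like and AP-like cells no member passed the call. No member was called higher, where 8.25% of 10127 genes were, and no member was called lower, where 6.2% were; at these shares fewer than 1 call in 9 genes stands in each direction, so the count is not a result about the members. The largest difference was Epha3, at 25% of 8 IP-like against 5.88% of 17 AP-like cells, 19.1 points, and the lowest was Efnb3, at 0 against 17.6%, -17.6 points. The median over the 9 members was 5.88 points, against 0.0 over all genes. With 8 IP-like cells 1 cell is worth 12.5 points, so differences of 1 or 2 cells could not be resolved. Under average linkage the IP-like cluster held 3 cells, 72J, 73A and 76J, of which 2 are neuron-like here, and Epha3 was then 91.7 and Epha5 54.2 points higher in it, with 5 members called higher.

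In the NICD/p18 APs the transgenes were checked before the members. Notch1 on 1418633_at stood at 12.75 to 13.7 in the 4 cells and at up to 10.58 in E11 AP-like cells, and on 1418634_at at 9.2 to 10.64 and at up to 12.33; where each probe set lies relative to the transgene was not determined. Cdkn2c on 1416868_at was over 20 copies in 0 of 4, with signals from 5.84 to 8.87, and whether this probe set lies in the part cloned into the plasmid was not determined, so it checks nothing. Mki67, a marker of cycling cells, was over 20 copies in 0 of 4 NICD/p18 and in 19 of 23 E11 AP-like cells.

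Against the E11 AP-like cells, which also serve as the controls of the E16 comparison, 4 of 9 members were called higher in NICD/p18 APs, where 15.2% of 10127 genes were. They were Ephb1 (75.0 against 4.35%, 70.7 points), Epha5 (50 against 0%, 50 points), Efnb3 (50 against 17.4%, 32.6 points) and Epha4 (100.0 against 69.6%, 30.4 points). No member was called lower, where 14.7% of genes were. With 4 cells, 1 cell is worth 25 points, and the intervals overlapped those of the E11 cells for all 4 members. The median over the 9 members was 9.78 points, against 0.0 over all genes.

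The NICD/p18 differences moved with the line used. With each group set against its own spike median, an alternative added after the data were seen, Epha4 went from 30.4 to -73.9 points, Efnb1 from 9.78 to -73.9 and Efnb3 from 32.6 to -26.1, Epha5 stayed at 50, and Ephb1 was 20.7. With the 20-copy signal doubled, Epha5 was 50, Ephb1 20.7 and Epha4 -22.8. Leaving out single NICD/p18 cells, Ephb1 ran from 62.3 to 95.7 points and Epha5 from 33.3 to 66.7, while Efnb3 was 15.9 without M6C or without M6H, which ends its call. Without M5A Efnb2 was called at 26.1 points, against 1.09 in all 4 cells, and without M6C Efnb1 was called at 34.8, against 9.78. Epha4 was 23.5 without the E11 cells numbered 45 and 5.43 with arrays scaled to the lys spike, where Ephb1 was 41.3, Epha5 66.3 and Efnb3 -9.78. In the deposited signals 25.5% of all genes were called higher and 10% lower, with a median log2 difference of 1.51, and with the lys spike 11.6% and 19.9%, with -0.39. Neuron markers moved with this comparison: of 18, 12 were over 20 copies in at least 1 NICD/p18 cell and 7 in at least 1 E11 AP-like cell, with summed log2 signal over the line of 3.61 to 24.69 and 0.0 to 6.69. Per cell they numbered 5 in M5A, 11 in M5K, 10 in M6C and 2 in M6H, and Ephb1 was under 20 copies in M5K and over it in the other 3; the part of these markers in the results was not tested.

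**Figure D4:**
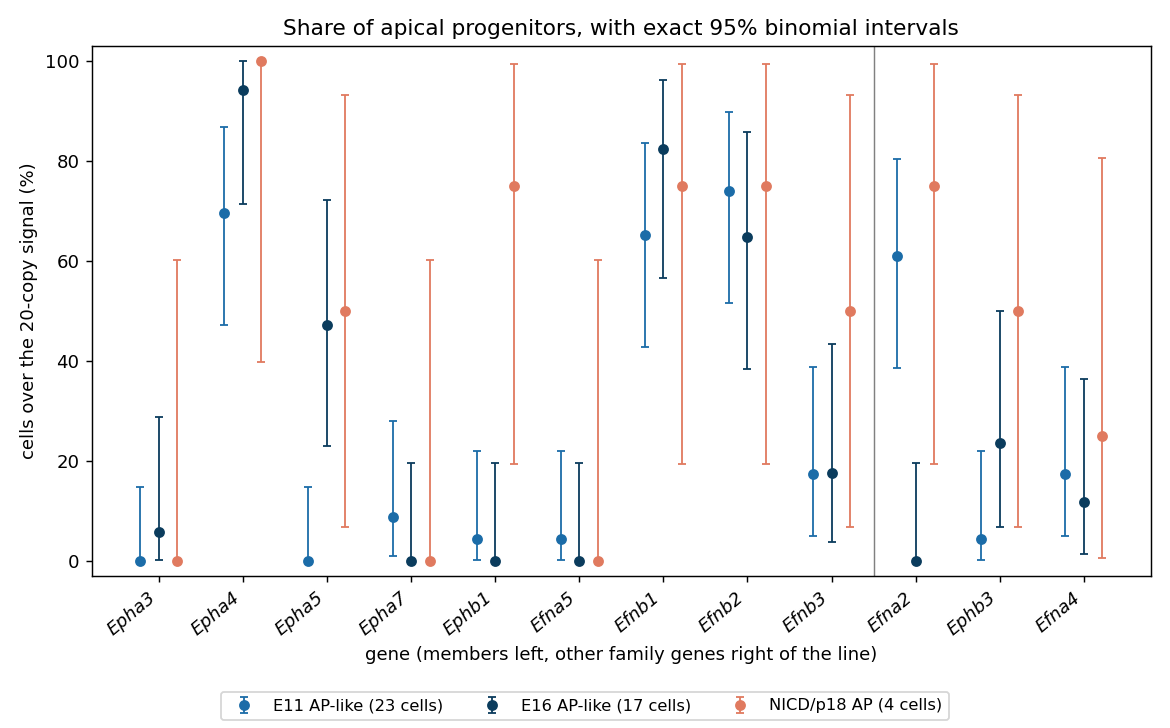
Percent of AP-like or AP cells over the 20-copy signal (vertical axis) for the 9 measured members and 3 further family genes (horizontal axis) at E11, at E16 and in NICD/p18 APs; points are shares and bars exact 95% binomial intervals. The intervals of E11 and E16 are apart for Epha5 (0 to 14.8% against 23 to 72.2%) and Efna2 (38.5 to 80.3% against 0 to 19.5%), and those of the 4 NICD/p18 cells are wide.

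Single cells commonly carried a receptor and an ephrin together. Counting the 5 measured receptors and 4 ephrins, 14 of 23 E11 AP-like cells had at least 1 of each over 20 copies, 3 had a receptor alone, 5 an ephrin alone and 1, cell 42P, neither. In E16 AP-like cells 15 of 17 had both, 1 a receptor alone and 1 an ephrin alone. Taken singly, 17 of 23 E11 AP-like cells had a receptor and 19 an ephrin, and 16 of 17 at E16 had each. Whether they go together beyond these separate shares was not tested. All 8 E16 IP-like cells, 2 of 3 E11 IP-like cells, all 6 neuron-like cells and all 4 NICD/p18 cells had both. Of 3 neurosphere APs, 2 had neither. The phe spike of these stood at 10.7 in W2O and at 3.71 in W6D, the lowest of the 67 cells, and its part in the low values of W6D was not tested.

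The number of members over 20 copies in a cell had a median of 2 in E11 AP-like cells (0 to 5), 3 in E16 AP-like cells (1 to 5) and 4 in E16 IP-like cells (2 to 5). It was 5 in neuron-like cells of both ages, with 5 to 7 at E11 and 2 to 6 at E16. Epha4, which binds B-type ephrins as well, was over 20 copies together with Efnb2 in 12 of 23 E11 and 11 of 17 E16 AP-like cells, and together with Efnb1 in 9 of 23 and 13 of 17. All 8 E16 AP-like cells over 20 copies for Epha5 were also over it for Epha4, as were 16 of 17 cells of that group in all.

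**Figure D5:**
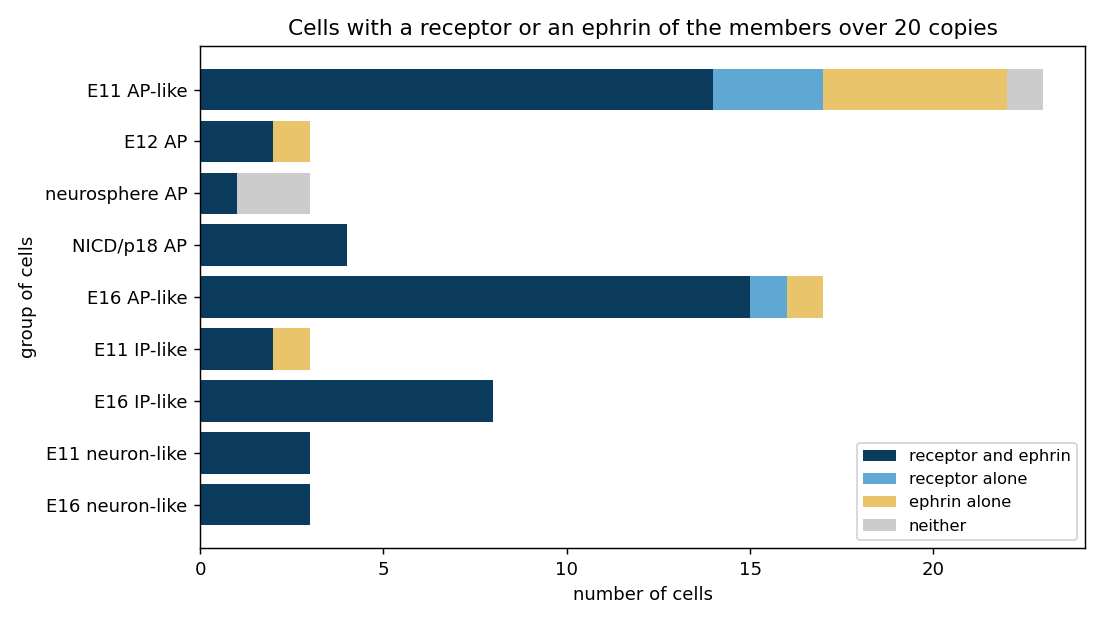
Number of cells (horizontal axis) of each group (vertical axis) with at least 1 member receptor and 1 member ephrin over the 20-copy signal, a receptor alone, an ephrin alone or neither. Cells with both make up 14 of 23 E11 AP-like, 15 of 17 E16 AP-like and 8 of 8 E16 IP-like cells, while 2 of 3 neurosphere APs have neither.

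Genes with a pattern like a member's were sought over the 57 cells of E11 and E16 among 5196 genes over 20 copies in at least 10 of them, which 4 members were. Signals under the 20-copy line were set to it first, so r partly reflects which cells are over the line, as for Epha5, over it in 15 of 57. The correlations were modest and are given as a description, since the cells mix 2 ages and differ in array level. The genes named are the highest of 5196, and how high such maxima run without a link was not tested. For Epha4 the most alike were Mrpl3, a mitochondrial ribosomal protein (r = 0.53), Pag1, a membrane adaptor of Src-family kinases (0.51), and Plce1, a phospholipase (0.51). For Epha5 they were Fastk (0.59), the tubulin acetyltransferase Atat1 (0.55) and Hectd2 (0.54), for Efnb1 Uqcrq (0.49), Arhgap19 (0.47) and Pagr1a (0.44), and for Efnb2 Tnks2 (0.51), Agps (0.44) and Fndc3c1 (0.44).

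Of the other 12 genes of the family, 7 passed the filter, and Epha1, Epha2, Epha6, Epha8 and Epha10 did not. Efna2, an A-type ephrin, had the largest difference among these 7 between E16 and E11 AP-like cells. On 1444606_at it was over 20 copies in 14 of 23 E11 AP-like cells, 60.9% (38.5 to 80.3), with a median signal of 10.07 and a highest of 11.27, and in 0 of 17 E16 AP-like cells, which allows up to 17.6%. The E16 minus E11 difference was -60.9 points under each of the 3 scalings, but it rests on 1 of 2 probe sets, since 1417521_at was over 20 copies in no cell. It was over 20 copies in 2 of 3 E12 APs, 3 of 4 NICD/p18 APs, 2 of 3 E11 IP-like and 3 of 8 E16 IP-like cells, and in no neurosphere AP or neuron-like cell. Efna2 was the 1 of 7 family genes called lower at E16, where 6.47% of all genes were. It was also the 1 of 7 called higher in E16 IP-like than in AP-like cells (37.5 points), where 8.25% of all genes were. The latter call came from 3 of 8 against 0 of 17 cells. In the deposited signals and with arrays scaled to the lys spike these counts were 2 of 8 and 0 of 17. That is the smallest difference that counts as a call.

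Ephb3, a receptor for B-type ephrins, was over 20 copies in 1 of 23 E11 and 4 of 17 E16 AP-like cells, 19.2 points, and in 2 of 4 NICD/p18 APs, 45.7 points above E11 (16.3 with arrays scaled to the lys spike). With Efna1, in 1 of 4, it made 2 of 7 family genes called higher in NICD/p18 APs, where 15.2% of all genes were, and the call of Efna1 rests on 1 cell. Efna4 was over 20 copies in 4 of 23 E11 and 2 of 17 E16 AP-like cells. Ephb4, Ephb6 and Efna1 were over it in 1 cell each, while Efna3, on its probe set of highest mean, 1431170_at, was over it in 1 of 3 neuron-like cells of each age, at 10.88 and 9.77. Its other probe set, 1455344_at, was over it in 3 of 3 E11 neuron-like cells, at 10.19, 10.45 and 10.54, and in no other cell.

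Genes that carry the signal inside the cell were counted from fixed lists, of which 21 of 26 genes of forward signalling and 10 of 12 of ephrin reverse signalling and cleavage passed the filter. Between E16 and E11 AP-like cells 1 of the 21 forward genes was called higher, where 5.55% of all genes were, and none lower, where 6.47% were. No reverse gene was called either way. The forward count is thus no more than the share over all genes. The called gene was Fyn, a Src-family kinase, at 70.6 against 39.1% of cells, 31.5 points, but 11 with arrays scaled to the lys spike. Next came Adam10, a protease that sheds ephrins (18.4 points), and the kinase Abl2 (14.8), and the lowest were Vav2, a guanine nucleotide exchange factor (-21.7), the GTPase Rhoa (-19.4) and the kinase Abl1 (-16.9). The list medians were -1.53 points for forward and 0.512 for reverse genes, against 0.0 over all genes.

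In E16 IP-like against AP-like cells 6 of the 21 forward genes were called higher, where 8.25% of all genes were, and 1 lower, where 6.2% were. Of the 10 reverse genes 1 was called higher, Dvl2 (25 points), which lies outside the naming rule. Chn1, the Rac-GAP alpha-chimaerin that acts in EphA4 signalling, was at 62.5 against 11.8% of cells (50.7 points), Rhoa at 87.5 against 58.8% (28.7) and Abl1 at 62.5 against 35.3% (27.2). Chn1 was also over 20 copies in 2 of 3 E16 neuron-like cells. Of the 18 neuron markers, 8 were over 20 copies in at least 1 IP-like and 5 in at least 1 AP-like cell, with a median of 4.5 against 2 per cell and a summed log2 signal over the line of 0.82 to 11.7 against 0.21 to 5.72; their part in these results was not tested. Chn1 was 38.2 and Rhoa 16.2 points with arrays scaled to the lys spike, so that Rhoa was no longer called. The lowest were Itsn1, an exchange factor for Cdc42, at 12.5 against 41.2% (-28.7), Adam10 (-20.6) and Pick1, a PDZ protein (-17.6), the last 2 without a call. The call of Itsn1 came from 1 of 8 against 7 of 17 cells, while its mean log2 signals differed by -0.19. The list medians were 0.735 and -2.94 points.

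In NICD/p18 APs against E11 AP-like cells 2 of the 21 forward genes were called higher and 2 lower, and 3 of the 10 reverse genes higher and none lower, where 15.2% of all genes were called higher and 14.7% lower. The forward counts are thus no more than the share over all genes. Fyn was over 20 copies in 4 of 4 cells, 60.9 points above E11 and 52.2 with arrays scaled to the lys spike. Its highest signal in these cells was 11.5, under the group's own phe spike median of 11.62, so no NICD/p18 cell was over that line. Fyn was followed by Rgs3, a G-protein regulator that binds the tail of B-type ephrins (41.3 points), and Dvl2 (37.0). Each of these 2 was over 20 copies in 2 of 4 cells, with highest signals of 10.68 and 10.39, also under the group's own spike median. The mean log2 signals of Dvl2 differed by 0.21. Kalrn and Git1, named after their values were seen, made up the other calls at 25 points, the size of 1 cell. Itsn1 (-30.4) and Chn1 (-26.1) were over 20 copies in none of the 4 cells, and Sdcbp, the PDZ protein syntenin, was at -19.6 points without a call. The list medians were 3.26 and 0.0 points.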

How the data were processed

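Single cells were lysed with spiked bacterial RNAs, their cDNA was amplified by PCR and each was hybridized to 1 array. The values deposited by the authors are MAS5 intensities on a linear scale, the tool being named in the submitters' processing notes. Columns of other samples numbered 0. No arrays of the series held identical values.

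The study's methods name quantile normalization after MAS5, which the deposited values do not carry, so all 68 arrays were quantile normalized together here and log2 transformed. The 20-copy signal was the median of the phe spike over the arrays (842.4 before log2). Of 45101 probe sets, 34958 have 1 gene symbol in the platform annotation, 932 have several and 9211 have none; none was named from a probe set with several. A gene was represented by its probe set of highest mean over all cells, which must be over 20 copies in at least 1 cell. Per stage, 3 clusters were cut from complete linkage on 1 minus the Pearson correlation of AP, IP and neuron markers and named by the marker list with the highest mean difference from the other cells of the stage.

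A gene was called where shares of cells over 20 copies differed by at least 25 points; each array is 1 cell of unknown embryo, so no p-value was computed. The rule named every member, family genes over 20 copies in at least 5 of the 68 cells (others of the family were named after their values were seen) and, of the signalling lists, the 3 largest differences each way. Members and lists were chosen with earlier results of these data known. Alternatives were the scaling (none, lys spike), the 20-copy signal doubled or halved, any probe set, the typing, the call rule and cells left out. The calling step was tested on simulated data. The work ran in Python 3.11.15 with scipy 1.17.1, pandas 2.3.3, matplotlib 3.10.9 and numpy 2.4.6. Arrays are limited in precision by their number, and intervals cover counting error only.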

Additional observations from a re-analysis of the deposited data

Results flagged for a closer look

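Among the 8 E16 IP-like cells, 2 members were over the 20-copy line in a single cell, which set that cell apart because signals under the line were set to it first, so that any set with 1 cell over the line stands out in this way. Ephb1 stood at 10.6 in cell 76C while the other 7 were under 20 copies. Efna5 stood at 10.82 in cell 73A while the other 7 were under 20 copies; that cell also had Epha3 at 10.92 and Epha5 at 11.76.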

How the results depend on the processing

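Of 80 recomputed counts of called members, 58 stayed within 1.5 times the reported count. Of 364 recomputed differences of single members, 354 were counted as staying within the interval of the share, 5 as moved beyond it and 5 of called members as changed in sign. The 364 include differences of mean log2 signals, which are not on the scale of a share (Epha5 at 5.03 against 47.1 points). For those, being counted as unchanged says nothing about their size. The causes were not tested. Called higher in E16 than in E11 AP-like cells was 1 member; this became 0 with the lys spike or by the difference of mean log2 signals (at least 2, the higher mean over 20 copies), and 2 with the 20-copy signal doubled, all cells of the stage, average linkage, cell 31i kept or the E11 cells numbered 42 left out. Called lower was 0 and became 1, Efnb2, with the lys spike, with the signal doubled (-40.2 points) or without the E16 cells numbered 81. For E16 IP-like against AP-like cells, called higher was 0 and became 1 with the signal doubled, without the cells numbered 81 or with each group's own spike median, 2 with it halved and 5 under average linkage, and called lower was 0 and became 1, Efnb3, without the cells numbered 81. For NICD/p18 against E11 AP-like cells, called higher was 4 and became 2 with the lys spike or the signal doubled or halved, 0 by mean log2 signals and 1 with own spike medians, where called lower went from 0 to 3 (Epha4, Efnb1 and Efnb3); without single NICD/p18 cells it ran from 3 to 5. Changes of sign of called members there were Epha4 with the signal doubled (-22.8) or own spike medians (-73.9), and Efnb3 with the lys spike (-9.78), own spike medians (-26.1) or mean log2 signals (-0.0832, a log2 difference). Own spike medians, the other probe sets of Epha4 and leaving out cell 42P were chosen after seeing the data. No paired analysis was possible because the results come from no test and the labels do not say what the number that some cells share in their names marks. With all cells of a stage pooled there is no IP-like group, so that comparison has no value there. Groups of 3 or 4 cells cannot show differences smaller than 1 cell.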
